A study of Mus musculus with 6 samples.

Results

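miR-146a, miR-146b, microRNA-155 (miR-155) and miR-147 are microRNAs (miRNAs) that inflammatory signals are known to switch on through the transcription factor NF-kB. They were chosen for that known control, by exact reporter name, and all 4 (mmu-miR-146a, mmu-miR-146b, mmu-miR-155 and mmu-miR-147) were among the 1078 mouse miRNA reporters read on each array. The arrays compared cultured vascular smooth muscle cells, the contractile cells of the arterial wall, without treatment (3 control arrays) and with the inflammatory cytokine TNF-α (3 TNF-α arrays). The cells of both groups were taken from C57BL/6 mice at an age of 8 weeks, from the abdominal aorta, and had been carried through several passages. No genetic change is given for either group, and neither dose nor duration of TNF-α is stated in the sources used here. The question was which miRNAs differ between the groups, here for this set of feedback miRNAs.

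TNF-α binding to its receptor activates NF-kB, which moves to the nucleus and turns on inflammatory genes together with genes that later dampen the response. miR-146a and miR-146b belong to the second kind. They repress the adaptor Traf6 and the kinase Irak1, which carry signals from Toll-like and interleukin-1 receptors to NF-kB. miR-155 is cut from the noncoding transcript of Mir155hg, also called Bic, and represses the signalling inhibitors Socs1 and Inpp5d, so that it tends to prolong the response of immune cells. miR-147 is induced in macrophages stimulated through Toll-like receptors and lowers their cytokine output. Most of this knowledge comes from leukocytes.

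The mature sequences show which of these miRNAs could pair with the same targets. Of the 8 reporters read from the 4 hairpins, 7 were matched in the RefSeq table of build GRCm38.p6; miR-147 was the one without an entry. Capitals mark the seed, bases 2 to 8 from the 5′ end, which pairs with target mRNAs. The first pair is shown because its members differ at so few bases, the third because it has a seed of its own, and the last because it is the other arm of the miR-146a hairpin.
miR-146a: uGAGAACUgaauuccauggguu
miR-146b: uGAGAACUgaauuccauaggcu
miR-155: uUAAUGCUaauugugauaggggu
miR-146a*: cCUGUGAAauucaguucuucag

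miR-146a and miR-146b share their seed with each other and with no other mature miRNA of the 1738 in the table. They are identical at 20 of 22 bases (90.9%) and differ by G18A and U21C, counted from the 5′ end with the miR-146a base first. Both differences lie in the 3′ part of the molecule. The probe sequences were not analysed here, so how well the reporters separate the pair was not tested. The seed of miR-155 was found in no other entry.

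The 4 hairpins lie on different chromosomes. The miR-146a hairpin, Mir146, spans chr11:43374397-43374461 on the minus strand, and no other annotated gene contains it. Mir146b spans chr19:46342762-46342870 on the plus strand, inside the noncoding gene Gm36493. Mir155 spans chr16:84714140-84714204 on the plus strand, inside Mir155hg. Mir147 spans chr2:122640803-122640881 on the plus strand, inside the protein-coding gene AA467197, also called Nmes1. Whether these positions are exonic or intronic was not analysed here.

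Each array gave 1 median density per reporter, a fluorescence intensity from which background had not been subtracted. The background peak, the commonest density of an array, lay at 66.3 to 75.6 on the control set and at 80.9 to 89.6 on the TNF-α set. A reporter was called above background when its density exceeded that peak by 3 SD of the values below it, which put the limit at 89.3 to 100.7 for controls and at 115.4 to 127.9 for TNF-α. Of 7 smooth muscle markers, 5 were above it on all 6 arrays, among them miR-143 and miR-145 (mean control densities 3577 and 5151). The other arms of these, miR-143* and miR-145*, were above it on no array and on 1 array. Of 6 blood cell markers, 5 were above background on no array, among them miR-142-3p, miR-142-5p and miR-223. The remaining marker, miR-150, was above it on 2 control arrays. The summed density of the 6 ran from 427.5 to 461.0 in controls and from 453.6 to 517.9 with TNF-α. Of the endothelial markers miR-126-3p (mean 136.7 in controls) was above background on all 6 arrays, and miR-126-5p on none. Of 6 striated muscle markers, miR-206 was above it on all 6 arrays (mean 256.6 in controls), miR-133b on 2 and the other 4 on none. Of 4 liver and gut markers, miR-192 and miR-194 were above it on all 3 control arrays, miR-215 on 2, and miR-122 on none. With TNF-α, miR-192 was above it on 1 array and miR-194, miR-215 and miR-122 on none. The part of the group difference in background in the results below was not tested. The files used here name no slide or scan date, so an array batch and the treatment cannot be told apart.

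miR-146a and miR-146b were above background on all 6 arrays, miR-147 on 1 TNF-α array, and miR-155 on none. No tested member passed as higher with TNF-α. Before adjustment 0 of the 3 tested were higher and 2 lower at p under 0.05 in limma, where 18.7% of all 642 tested reporters were higher and 16.8% lower. The normalized signal of miR-155 passed limma's moderated test as lower, but that signal was not above background in either group. miR-146a (log2 change 0.13 ± 0.09, standard error, n = 3 per group) and miR-146b (-0.22 ± 0.08) did not pass the test, and miR-147 was too dim to be tested. By the same test, with a threshold of 0.05 on the p-value after Benjamini-Hochberg adjustment, 12.9% of the 642 tested reporters were higher with TNF-α and 9.81% were lower. Total RNA of whole cultures was measured, so fewer cells expressing a miRNA and less of it per cell cannot be told apart.

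**Figure D1:**
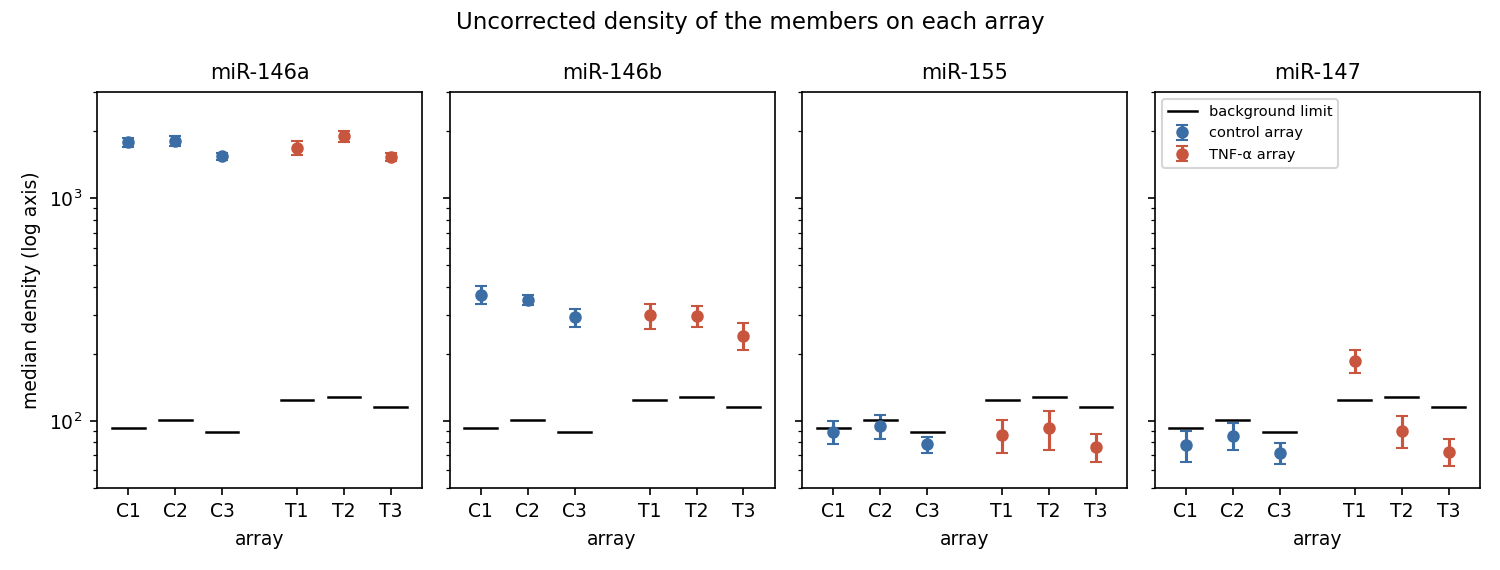
Median density of miR-146a, miR-146b, miR-155 and miR-147 (log axis, uncorrected) on the control arrays (C1 to C3) and the TNF-α arrays (T1 to T3). Points are single arrays, bars the SD deposited with each density, and black lines the background limit of that array. miR-146a and miR-146b lie above the limit throughout, miR-155 below it throughout, and miR-147 above it only on T1 (density 186.6).

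miR-146a, the best known feedback inhibitor of NF-kB among the 4, was also the brightest of them. Its densities were 1782, 1807 and 1545 on control arrays 1, 2 and 3, and 1689, 1895 and 1531 on TNF-α arrays 1, 2 and 3. The groups overlapped fully, with the highest and the lowest value both in the TNF-α group. Mean densities were 1711 ± 144.5 (SD, n = 3) and 1705 ± 182.5 (SD, n = 3). The density was 13.3 to 19.1 times the background limit, so that it was far from background on every array.

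The within-array SD of miR-146a was 3.81% to 7.47% of its density. The authors deposited this SD beside each density, without saying whether it runs over pixels or spots. For all reporters above background the median within-array SD was 9.17% to 10.9% of the density, and on each array the figure for miR-146a was below that median. By brightness it ranked 62nd, 60th and 61st of 1078 on the control arrays and 60th, 56th and 60th on the TNF-α arrays. Quantile normalization assigns values by rank, so TNF-α arrays 1 and 3 and control array 2 carried the same log2 value of 10.73.

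On that normalized scale the control mean of miR-146a was 10.68 ± 0.05 (SD, n = 3) and the TNF-α mean 10.81 ± 0.14. The difference of 0.13 had a 95% interval of -0.06 to 0.33, which is 0.958-fold to 1.26-fold, and an adjusted p of 0.307 in limma. The interval thus leaves out a rise of more than 1.26-fold on this scale. TNF-α array 2 was the highest, and without it the difference was 0.06.

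The direction for miR-146a depended on how arrays were scaled. Its change came to -0.01 if arrays were not normalized and to -0.07 from the authors' processed table. Median scaling, which shifts each array to the same median log2 value over a reference set, gave 0.14 over the 209 reporters above background on all 6 arrays and -0.04 over the 293 above it on at least 3 arrays. None of these 4 values passed the test (adjusted p 0.958, 0.599, 0.299 and 0.795 in limma). The scalings also move the tested reporters as a whole: their median change was 0.01 with quantile normalization and 0.14, -0.12, 0.29 and 0.11 under those 4 in turn. Over the 209 reporters the medians were 0.00 with quantile normalization and -0.01, -0.09, 0.13 and -0.04 under the others. Relative to the medians over the 209, miR-146a was 0.13 with quantile normalization and 0.00, 0.02, 0.01 and 0.00 under the others. Relative to the medians over all tested reporters it was 0.12 with quantile normalization and -0.15, 0.05, -0.15 and -0.15 under the others.

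miR-146b, which carries the same seed, was dimmer. Its densities were 368, 349 and 291 on the control arrays and 298, 296 and 242 on the TNF-α arrays. The lowest control array lay just under the higher TNF-α arrays, so the groups overlapped by that 1 array. Mean densities were 336 ± 40.0 (SD, n = 3) and 278 ± 31.9 (SD, n = 3). The within-array SD amounted to 5.17% to 9.25% of the density in controls and 11.1% to 14.3% with TNF-α.

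Relative to background, miR-146b reached 3.26 to 3.95 times the limit in controls and 2.09 to 2.41 times with TNF-α. Its rank by brightness was 119, 119 and 122 in controls and 125, 127 and 133 with TNF-α. After normalization its log2 values were 8.39, 8.39 and 8.27 in controls and 8.21, 8.15 and 8.02 with TNF-α. On this scale every TNF-α array was below every control array, as was the case for 25.4% of the 209 reporters above background on all 6 arrays.

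The normalized difference of miR-146b was -0.22 ± 0.08 (95% interval -0.40 to -0.04), a 1.16-fold lower signal. Its p was 0.0219 before adjustment and 0.0755 after, so it did not pass. It was negative under all 21 alternatives, between -0.50 and -0.14, and it passed in 4 of them: with only reporters of corrected density 100 or more tested (-0.22, adjusted p = 0.0467 in limma, where 20.6% of reporters were lower), with median scaling over the 293 reporters (-0.31, adjusted p = 0.0318, where 7.79% were lower) and in the processed table with either 32 or 8 added (-0.46 and -0.50, adjusted p 0.0103 and 0.024, where 28.4% were lower). In the processed table miR-146b was 299, 275 and 247 in controls and 214, 202 and 158 with TNF-α, with no overlap, as for 37.3% of the 209 reporters. In that table the authors' value was the density less 69.11 on control array 1 and less 83.65 on TNF-α array 1, for each of the 4 members. On the other arrays the difference was not constant. It ran from 69.61 (miR-155) to 101.64 (miR-146a) on control array 2, and from -63.95 (miR-146a) to 65.55 (miR-155) on control array 3.

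**Figure D2:**
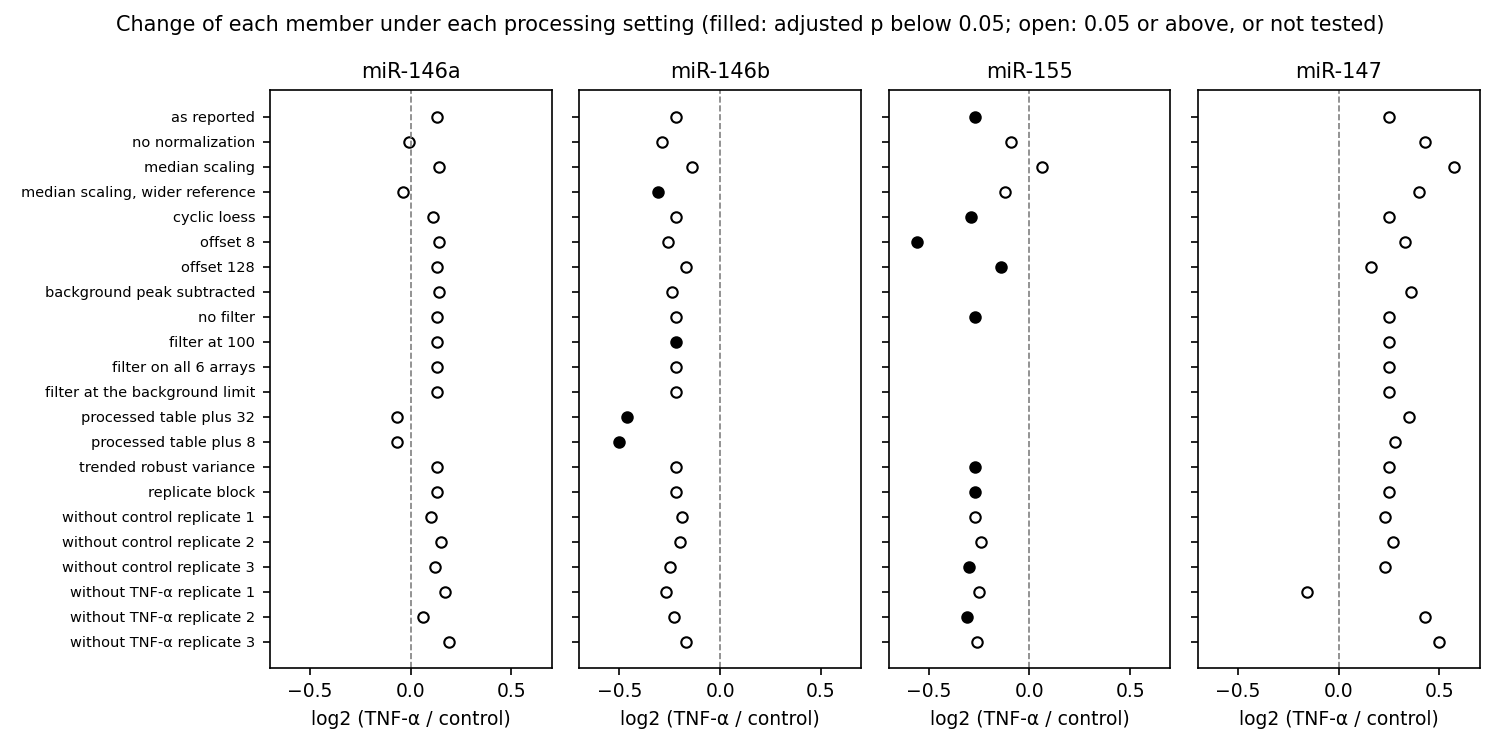
Log2 change of each member, TNF-α over control, as reported and under each alternative (rows). Filled points passed an adjusted p of 0.05 in limma, open points did not pass it or were not tested. miR-147 was tested only with no filter and is drawn untested elsewhere, and miR-155 has no point where it did not pass the filter; the wider reference is the set of 293 reporters. miR-146a stays between -0.07 and 0.19 and miR-146b between -0.50 and -0.14, miR-155 turns sign with median scaling over 209 reporters (0.06) but not over 293 (-0.12), and miR-147 turns sign without TNF-α array 1 (-0.16).

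Because miR-146a and miR-146b share a seed, their balance was also compared within each array, where scaling of the array has almost no effect. The size of such a ratio depends on the probes and says nothing of the relative amounts, but its change between groups can be compared. The ratio of the miR-146a signal to the miR-146b signal was 4.88, 5.22 and 5.24 on the control arrays and 5.79, 6.51 and 6.32 on the TNF-α arrays. All TNF-α arrays were above all control arrays.

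On the log2 scale the mean ratio was 2.35 ± 0.06 for controls and 2.63 ± 0.09 for TNF-α (SD, n = 3 each), a difference of 0.28 or 1.21-fold. The exact two-sided permutation test gave p = 0.1, the smallest value that 3 arrays against 3 can give. Ratios without overlap between groups were common, at 55.9% of the 21736 pairs that the 209 reporters above background on all 6 arrays form. The median size of the ratio change over those pairs was 0.31, and 54.4% of pairs changed by more than the miR-146 pair. The difference was 0.33 without the offset, 0.27 on uncorrected densities and 0.45 in the processed table, so its direction was the same on these scales.

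**Figure D3:**
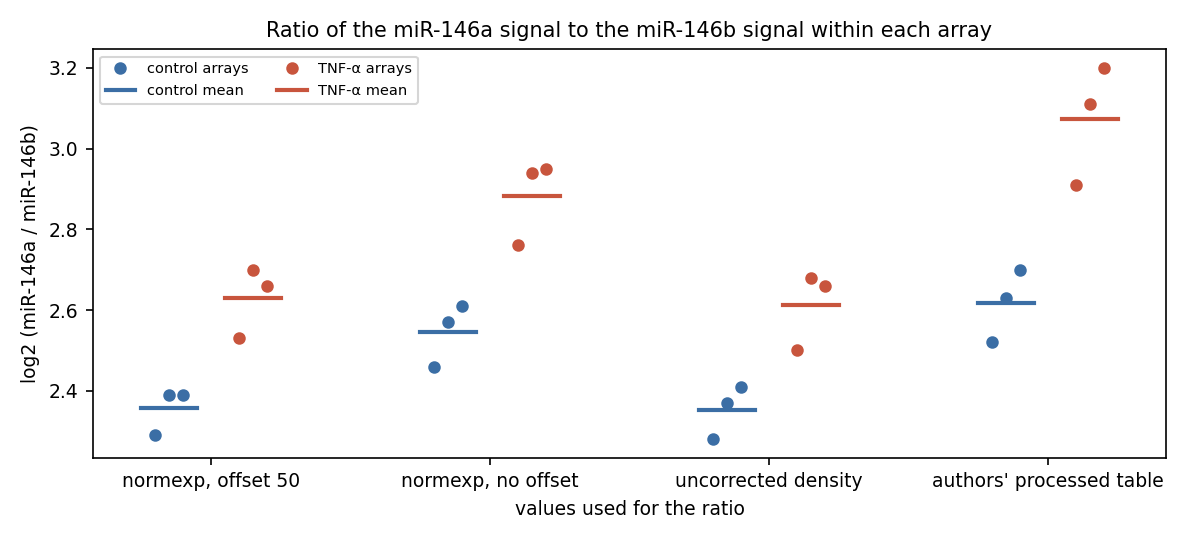
Log2 ratio of the miR-146a signal to the miR-146b signal within each array, computed from 4 kinds of values. Points are arrays and lines group means. On each scale the TNF-α arrays lie above the control arrays, with mean differences of 0.28, 0.33, 0.27 and 0.45 from left to right.

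miR-155, which acts mainly in immune cells, was at the edge of background. Its densities were 89.3, 94.3 and 78.3 on the control arrays and 86.1, 92.6 and 76.0 on the TNF-α arrays. Uncorrected, the groups overlapped almost completely, with means of 87.3 ± 8.18 (SD, n = 3) and 84.9 ± 8.35 (SD, n = 3). Against the background of its own array, however, miR-155 was 2.45, 2.24 and 1.57 background SDs above the peak in controls, and -0.30, 0.23 and -0.42 with TNF-α. The control values were thus above the peak without reaching the limit, and the TNF-α values lay at the peak.

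miR-155 passed the filter for testing because its corrected density reached 32 on all 3 control arrays and on TNF-α array 2. After normalization its log2 values were 6.52, 6.57 and 6.45 in controls and 6.21, 6.31 and 6.21 with TNF-α, without overlap, as for 19.6% of tested reporters in that direction. These normalized signals differed by -0.27 ± 0.07 (adjusted p = 0.0279 in limma). Both groups were below the limit, so the value compares signals at background level and is no measure of a change in miR-155 itself. Of the 256 tested reporters that were above background on no array, 3.52% were lower and 12.1% higher by this test.

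The call of miR-155 was lost without normalization (-0.09) and with median scaling over 293 reporters (-0.12, adjusted p = 0.369 in limma). The sign turned with median scaling over 209 (0.06), where the median change was 0.29 over all tested reporters and 0.13 over the 209. Relative to those medians miR-155 was at -0.23 and -0.07. It was below both medians in all 16 settings that tested it. Those settings draw on the same arrays, and the signal was at background level throughout. Their common direction is therefore no evidence of a fall in miR-155. The call was also lost without control array 1 (-0.27) or 2 (-0.24) and without TNF-α array 1 (-0.25) or 3 (-0.26). With the limit set at 2 SD, miR-155 exceeded it on 2 control arrays and no TNF-α array, and with 5 SD on no array.

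miR-147, a Toll-like receptor response miRNA of macrophages, stood out on a single array. Its densities were 78.0, 85.6 and 71.9 on the control arrays and 186.6, 90.3 and 72.6 on the TNF-α arrays. TNF-α array 1 was 2.07 times the next highest value, and the other TNF-α arrays lay within or just above the control range. On TNF-α array 1 miR-147 was 8.53 background SDs above the peak, with a within-array SD of 22.1, and above the limit also when set at 5 SD. On the remaining 5 arrays it was -0.72 to 1.19 background SDs from the peak.

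Its corrected density reached 32 on only 2 arrays, so miR-147 was not tested. With no filter its change was 0.25 ± 0.28 (adjusted p = 0.61 in limma), and without TNF-α array 1 the normalized difference was -0.16. The bound that sets its TNF-α mean against the lowest signal above background came to 0.992, and a fold is therefore not given. The other arm of its hairpin, miR-147*, was at 84.5 on TNF-α array 1 and at 75.4 and 75.2 on the other two, below the limit on each. The reporters listed just before and after miR-147 in the files, miR-688 (83.4) and miR-1948 (78.2), were also below it on TNF-α array 1, but the layout of the array is not given.

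Above background on exactly 1 array were 69 of the 1078 reporters, and for 10 of them that array was TNF-α array 1. In 8 of the 69 the value was at least 1.5 times the next highest, and by that ratio miR-147 had rank 5. The array with the high value was a TNF-α array in 5 of those 8 and a control array in 3.

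The other arms of the 4 hairpins, which are normally degraded while the abundant arm is kept, were above background on no array. Of these 4 reporters 0 passed the filter, so none was tested in the main comparison. miR-146b*, miR-155* and miR-147* lay between -1.36 and 2.44 background SDs from the peak on all arrays, and their uncorrected densities overlapped between groups.

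miR-146a* differed from those 3 in its uncorrected densities. They were 76.4, 77.4 and 70.8 on the control arrays and 60.9, 70.6 and 56.4 on the TNF-α arrays, without overlap. Only 4.36% of all reporters had every TNF-α density below every control density, whereas 38.2% had every TNF-α density above. With TNF-α, miR-146a* was at -2.52, -1.49 and -2.13 background SDs, below the peak itself. With no filter it was called lower (-0.46, adjusted p = 0.00878 in limma), against 7.24% of the 1078 reporters, but no fold is given because it was not above background in either group. Subtraction of the background peak brought the difference to -0.05. In that setting values below the peak are raised to a common floor, as on every TNF-α array here. It therefore cannot show how far the groups differ.

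**Figure D4:**
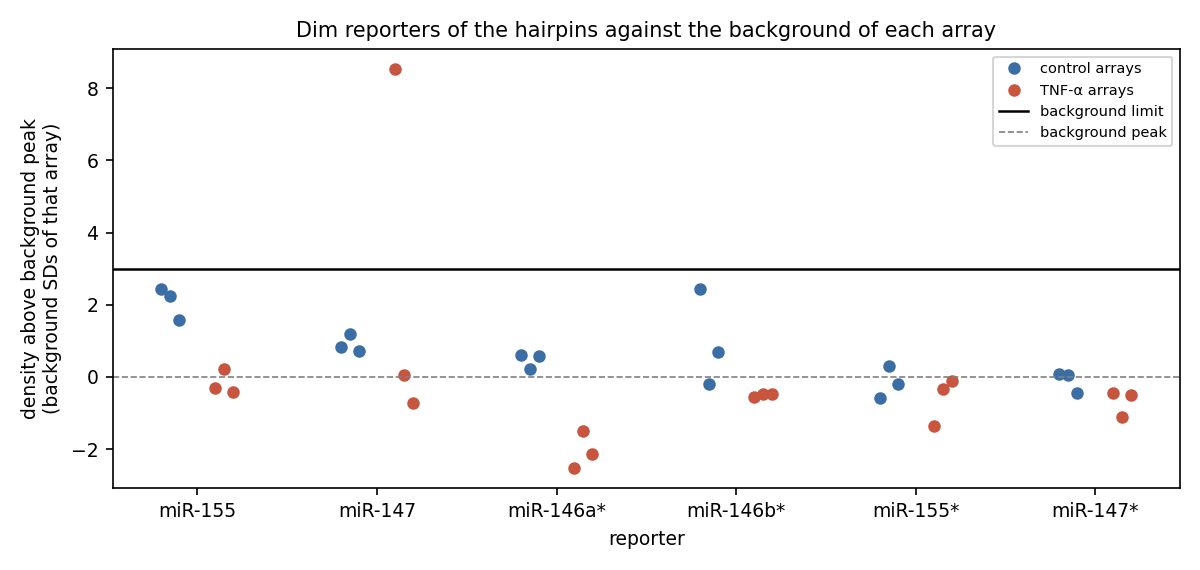
Density of miR-155, miR-147 and the other arms relative to each array's background peak, in background SDs of that array, for control and TNF-α arrays. The solid line is the limit at 3 SD and the dashed line the peak. Only miR-147 on 1 TNF-α array (8.53) exceeds the limit, miR-155 lies higher on control arrays (1.57 to 2.45) than on TNF-α arrays (-0.42 to 0.23), and miR-146a* lies below the peak on TNF-α arrays (-2.52 to -1.49).

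Of the other miRNAs that NF-kB or TNF-α are known to induce, 7 were tested and 0 passed with quantile normalization. The list of such miRNAs held 14 names, the 4 members included, of which 8 were above background on all 6 arrays and 10 were tested. Of the 10, 0 passed as higher and 1 as lower, which was miR-155 at background level, against 12.9% and 9.81% of all tested reporters. Before adjustment, p was under 0.05 in limma for 0 higher and 2 lower, miR-155 and miR-146b, against 18.7% and 16.8% of all tested reporters. The median change was -0.01, beside 0.01 over all tested reporters.

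The 7 tested members of this list besides the 4 ran from -0.18 to 0.11. miR-21, which represses Pdcd4, was at -0.18 ± 0.09 after quantile normalization, but the sign turned on most other scales. Its mean density was 36390 ± 2489 in controls and 38340 ± 2116 with TNF-α (SD, n = 3 each), with overlap. In the processed table the means were 35870 and 38860, with every TNF-α array above every control array, and the change there was 0.12 (adjusted p = 0.313 in limma). miR-21 was at 0.08 without normalization, at 0.22 and 0.05 with median scaling over 209 and 293 reporters, and at -0.10 with cyclic loess, and passed under none of these. miR-132, induced by the factor CREB as well, was at -0.11 ± 0.08, and passed as lower with median scaling over 293 reporters (-0.33) and in the processed table (-0.37). miR-31, known to repress E-selectin in endothelium, was at 0.06 ± 0.07. miR-221 and miR-222, which promote smooth muscle proliferation, were at 0.05 ± 0.08 and -0.03 ± 0.12, and miR-125b-5p at 0.00 ± 0.08. Of these, miR-221 passed as higher with median scaling over 209 reporters (0.32, adjusted p = 0.0278 in limma), where 45.8% of all tested reporters were higher. It did not pass under the other scalings. miR-301a (0.11 ± 0.09) was above background on no array, as were miR-9, miR-9* and miR-223, which were not tested. At that level miR-301a passed as higher without normalization (0.31) and with median scaling over 209 reporters (0.45). In those settings 25.4% and 45.8% of all tested reporters were higher.

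A second list held 17 miRNAs with reported targets in NF-kB signalling, most of them known to restrain it, again with the 4 members included. miR-155 instead tends to prolong the response of immune cells, so the counts are given without the members. Of the other 13, 11 were tested, of which 2 rose and 0 fell, against 12.9% and 9.81% of all tested reporters, and 2 and 1 had an unadjusted p under 0.05 in limma, against 18.7% and 16.8%. Those that rose were miR-199a-5p, known to repress the kinase Ikbkb (0.42 ± 0.08, adjusted p = 0.0102 in limma), and miR-181a (0.39 ± 0.08, adjusted p = 0.0115). miR-181b, the member of that family known to repress an importin that carries NF-kB into the nucleus, was at -0.07 ± 0.11 and did not pass. Both calls were lost without normalization (0.27 and 0.24), with median scaling over 293 reporters (0.24 and 0.22) and in the processed table (0.24 and 0.20), and that of miR-181a also without control array 2 (0.38). The median change of the 11 was 0.05, beside 0.01 over all tested reporters.

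Among the rest of the second list, miR-10a (0.05 ± 0.08), miR-15a (-0.05 ± 0.07), miR-16 (-0.11 ± 0.09), miR-23b (0.10 ± 0.08) and miR-126-3p (-0.17 ± 0.10) were above background on all arrays and did not pass with quantile normalization. miR-16 passed as lower in the processed table (-0.28), and miR-23b as higher with median scaling over 209 reporters (0.32). miR-124 (-0.25 ± 0.08) and miR-203 (0.07 ± 0.08) were above background on none. At that level miR-203 passed as higher with the same median scaling (0.41). Over both lists 17 miRNAs besides the members were tested. Of these, 2 passed as higher and 0 as lower, against 12.9% and 9.81% of all tested reporters. Those counts depended on the scaling. They were 6 and 0 under median scaling over 209 reporters, where 45.8% and 3.89% of all tested reporters passed as higher and lower. Over 293 they were 0 and 1, against 18.1% and 7.79%. Without normalization they were 1 and 0, against 25.4% and 6.39%. In the processed table they were 0 and 2, against 13.7% and 28.4%. Of the 17, 9 kept their sign under the 5 other scalings and 8 did not.

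**Figure D5:**
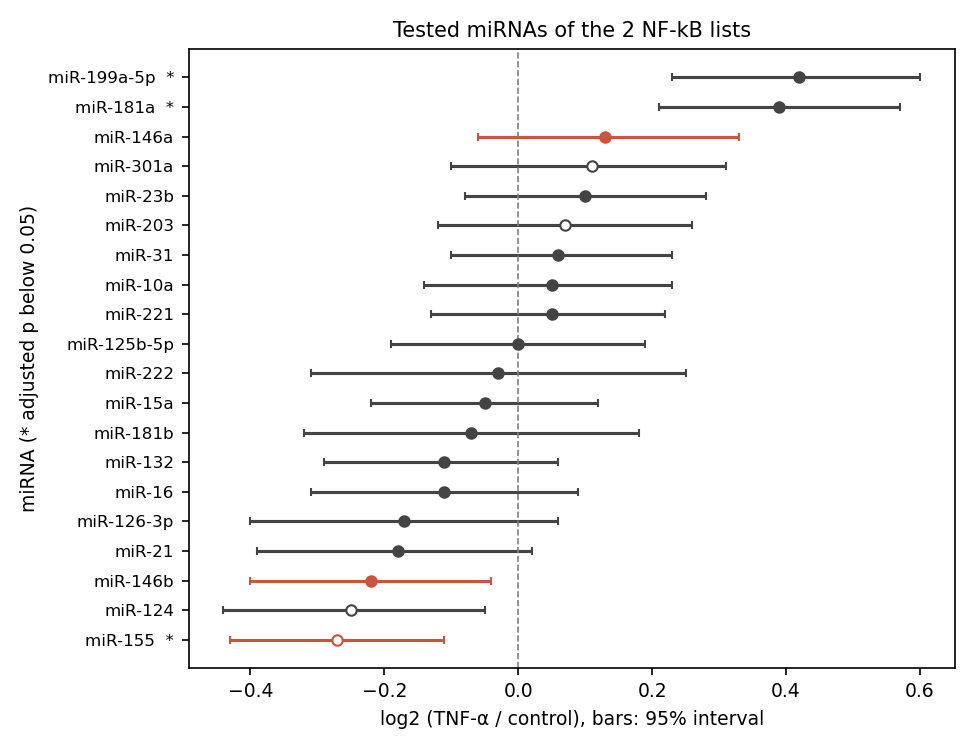
Log2 change, TNF-α over control, of the 20 tested miRNAs of the 2 NF-kB lists, with 95% intervals from limma. Red marks the members, filled points were above background on all 6 arrays, open points on none, and an asterisk marks an adjusted p below 0.05. With quantile normalization only miR-199a-5p (0.42), miR-181a (0.39) and miR-155 (-0.27, above background on no array) passed.

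The reporters whose pattern over the 6 arrays was most like that of miR-146a were miR-5119, miR-99a and miR-28. Likeness was the root mean square distance between normalized log2 values after each reporter's mean was removed, which was 0.057, 0.064 and 0.066 for these 3 against a median of 0.166 over 208 candidates above background. Most like miR-146b were miR-30e (0.045), miR-3960 (0.051) and miR-762 (0.056), against a median of 0.188. Of the 6, only miR-3960 passed the test (-0.28, adjusted p = 0.0279 in limma). The distances are a description over 6 arrays that share their scaling.

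Reporters of nearly the same brightness as the members did not move in 1 direction. Next to miR-146a (mean density 1708) were miR-320 (1781), which fell by 0.26 (adjusted p = 0.0279 in limma), and miR-5115 (1707), which rose by 0.33 (adjusted p = 0.0459). Next to miR-146b (307) were miR-106b (0.12) and miR-669f-5p (-0.25), which did not pass. Next to miR-155 (86.1) were miR-194-2* (-0.02) and miR-3093-5p (0.07), which did not pass and were above background on no array. Next to miR-147 (97.5) were miR-3104-5p (0.16) and miR-323-5p (0.05), which did not pass.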

How the data were processed

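Total RNA of each culture was tailed, tagged and stained with Cy5, 1 colour per array, per the labels' protocols. Neither the scanner nor the miRBase release is stated in the sources used here. The authors deposited, per the file headers, for each reporter a median density with its SD, both linear intensities, and a table of processed intensities whose scaling is unstated (lowest value 0.01). Its medians were 10.4, 11.9 and 10.4 for control and 12.0, 11.9 and 8.39 for TNF-α arrays 1, 2 and 3. All its columns were assigned to samples.

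Densities were corrected with normexp (offset 50), taken to log2 and quantile normalized in limma 3.58.1 under R 4.3.3. Reporters with a corrected density of 32 on at least 3 arrays were tested, with group as the only term, two-sided. The offset understates fold changes. The cultures of a group were separate ones, per the labels, although the replicate numbers there are not all distinct in the TNF-α group. The 4 members and the lists were chosen with earlier results of these data known. Named were the members, their other arms, both NF-kB lists, the 3 most alike reporters, neighbours in brightness and reporters sharing a seed. Alternatives were other scalings, offsets, filters, variance models, the processed table, a replicate block and each array left out. The number of arrays limits precision.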

Additional observations from a re-analysis of the deposited data

How the results depend on the processing

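Against 83 higher and 63 lower, there were 163 and 41 without normalization, 294 and 25 with median scaling over the 209 reporters above background on all 6 arrays, 116 and 50 over the 293 above it on at least 3, 51 and 48 with the background peak subtracted, 38 and 39 with the filter at 100, 50 and 58 with it on all 6 arrays, 52 and 58 with it at the background limit, and 39 and 81 or 38 and 81 in the processed table plus 32 or plus 8. Leaving out 1 array gave 37 to 56 higher and 26 to 47 lower, partly because 500 to 626 reporters were then tested. Higher calls were 56.8% of all calls, 79.9%, 92.2% and 69.9% under the first 3 of these settings, and 32.5% in the processed table plus 32. miR-146a was reversed without normalization (-0.01), with median scaling over 293 (-0.04) and in the processed table plus 32 (-0.07) or plus 8 (-0.07); otherwise it was positive, 0.06 to 0.19 with 1 array left out. miR-146b passed with the filter at 100 (-0.22), with median scaling over 293 (-0.31) and in the processed table plus 32 (-0.46) or plus 8 (-0.50), and was -0.27 to -0.17 with 1 array left out. miR-155 was weaker without normalization (-0.09) and with median scaling over 293 (-0.12), and its sign turned over 209 (0.06). That value was still below the median change of all tested reporters. With 1 array left out miR-155 was -0.31 to -0.24, and 6 of the 21 alternatives left it untested. miR-147 was -0.16 to 0.50 with 1 array left out. The miR-146a to miR-146b ratio kept its direction under all 18 alternatives (0.22 to 0.45; 0.24 to 0.33 with 1 array left out). Of the other arms, 1 was called with no filter, miR-146a*, whose difference of -0.46 was -0.32 without normalization, -0.18 and -0.35 with median scaling over 209 and 293, -1.27 and -0.21 with the smaller and larger offset, -0.05 with the peak subtracted, and -0.30 and -0.93 in the processed table plus 32 and plus 8. In the same order of settings miR-146b* (-0.18) was 0.00, 0.15 and -0.02, then -0.40 with the smaller offset, and -0.40 and -1.13 in the table. miR-155* (-0.07) was 0.13, 0.28 and 0.10, and -0.35 in the table plus 8, and miR-147* (-0.08) was 0.10, 0.25 and 0.08, -0.20 with the smaller offset, 0.00 with the peak subtracted and -0.39 in the table plus 8. All these arms lay below background. With the peak subtracted, values at or below the peak were raised to a common floor, so the -0.05 and 0.00 of that setting cannot measure a difference. Median scaling over 293 reporters, limits at 2 and 5 SD, the ratio on other scales and the settings for miR-181a and miR-199a-5p were chosen after seeing the data.

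With the replicate number as a block 55 were higher and 48 lower, and no call of a member changed (miR-155 -0.27, adjusted p = 0.0467 in limma). Whether same-numbered arrays belong together cannot be told from so few arrays. Their deviations correlated at 0.04, 0.02 and 0.15. Control array 1 correlated best with TNF-α array 2 (0.10), control array 2 with TNF-α array 1 (0.03), and control array 3 with TNF-α array 3 (0.15). The labels number 2 TNF-α cultures as replicate 3, so the array numbers used here follow the sample titles.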

Other observations

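Single-array signals like that of miR-147 also occurred for miRNAs outside the set, and are given here as values. miR-432 was at 219.8 on TNF-α array 1, 3.33 times its next highest value. miR-1957 and miR-92a-2* were at 292.8 and 322.0 on TNF-α array 3, 3.31 and 3.24 times their next highest values. These 3 reporters were chosen after their values were seen, and each was above background on no other array.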
